A study of Mus musculus with 17 samples.

Results

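Regulators and markers of naive and stem-like T cells, 10 genes in all, were followed in CD8+ T cells (cytotoxic T lymphocytes) taken from brain or blood of WT and APP-PS1 mice. The genes are Tcf7, Lef1, Satb1, Bach2, Foxp1, Foxo1, Dapl1, Igfbp4, Actn1 and Il6ra, chosen by name, and each had a row among the 48709 genes counted. The 17 RNA sequencing libraries fell into 4 groups. Wild type (WT) mice gave 5 brain and 5 blood libraries, and APP-PS1 mice gave 4 brain and 3 blood libraries. APP-PS1 (APP Swedish PS1 dE9) is a transgenic strain used as a model of Alzheimer's disease. One transgene is Mo/HuAPP695swe, a chimeric mouse/human amyloid precursor protein with the Swedish mutation. The second is PS1-dE9, which encodes a mutant form of human presenilin 1. A prion protein promoter directs both to neurons of the central nervous system. Every WT library was from a female; the APP-PS1 libraries were from 3 males and 1 female for brain and from 2 males and 1 female for blood. The series title calls the mice aged; the sources used here give neither their ages nor the way CD8+ cells were separated, and brain and blood libraries are not paired by any label.

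A naive CD8+ T cell has not yet met its antigen and recirculates between blood and lymphoid organs. TCF-1, the product of Tcf7, and LEF-1 are related HMG-box factors that act with beta-catenin or with Groucho/TLE corepressors and hold T cells in a naive or self-renewing memory state. SATB1 organises chromatin in developing and naive T cells, BACH2 represses effector genes at AP-1 sites, and FOXP1 and FOXO1 are forkhead factors that keep naive T cells quiescent. FOXO1 also drives genes for homing and survival such as Klf2, Ccr7 and Il7r. Dapl1, Igfbp4 and Actn1 are used as transcript markers of naive CD8+ T cells, and Il6ra encodes the binding subunit of the interleukin-6 receptor, which is lost from activated T cells. Memory cells that reside in tissues are known to express less Tcf7, Lef1 and Klf2 than circulating naive and central memory cells.

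The upstream sequences of 3 members are shown because their transcripts were all lower in brain libraries in the results below, while their start regions differ in composition. The windows are the 250 bases before the most upstream RefSeq start on GRCm38.p6, written 5′ to 3′ on the gene's strand, with capitals for a forkhead motif (TGTTTAC) or a GC box (GGGCGG) on either strand. Lef1 lies at chr3:131110047-131110296 on the plus strand, Satb1 at chr17:51833291-51833540 on the minus strand and Dapl1 at chr2:59484403-59484652 on the plus strand.
Lef1: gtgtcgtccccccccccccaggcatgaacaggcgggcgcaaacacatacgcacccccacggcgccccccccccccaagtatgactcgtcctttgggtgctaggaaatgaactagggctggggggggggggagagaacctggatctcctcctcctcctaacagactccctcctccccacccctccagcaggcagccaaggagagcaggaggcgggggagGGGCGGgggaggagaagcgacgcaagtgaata
Satb1: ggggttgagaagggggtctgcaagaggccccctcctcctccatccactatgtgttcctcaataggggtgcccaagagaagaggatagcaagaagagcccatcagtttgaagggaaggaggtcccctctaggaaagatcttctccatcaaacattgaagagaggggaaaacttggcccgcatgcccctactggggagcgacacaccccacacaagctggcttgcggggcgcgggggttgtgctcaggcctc
Dapl1: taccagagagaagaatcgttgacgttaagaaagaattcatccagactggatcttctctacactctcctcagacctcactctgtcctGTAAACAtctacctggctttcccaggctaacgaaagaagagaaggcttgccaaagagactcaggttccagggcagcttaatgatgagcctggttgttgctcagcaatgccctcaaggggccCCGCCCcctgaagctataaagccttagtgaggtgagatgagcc
The Lef1 window held 1 GC box, which starts 32 bases before the start site,. In the Dapl1 window a forkhead motif began 164 bases before the start and a GC box 43 bases before it, both printed as their reverse complement. The Satb1 window had neither motif. G and C made up 66.4% of the Lef1 window and 58.0% of the Satb1 window. All 10 members matched the RefSeq table. Across them the forkhead motif occurred in 1 window, against 3.06% of 27025 RefSeq windows of the same length. The TCF/LEF motif CTTTGA occurred in 1 window (Bach2), against 14.1% of all windows. That window precedes the RefSeq start at chr4:32417435 and lies inside the gene as GENCODE annotates it, from 32238804. The AP-1 motif TGANTCA occurred in 0 windows, against 6.85%. GC boxes occurred in 6, against 33.0%. The 6 include Tcf7, whose annotated start may lie within the coding sequence of its long isoform, and without it the count was 5 of 9. Motifs of different kinds did not overlap in these 10 windows, and a match describes the sequence alone.

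The libraries were shallow, with 27646 to 214670 counts each (APP-PS1 blood 39055 to 46336), so a member at 100 CPM (counts scaled to the same total in every library) rests on few reads. Summed CD8 T cell markers ranged from 9021 to 13448 CPM over the 17 libraries, and Cd4 and Foxp3 were at 0 in all of them. With Cd40lg and Ctla4, which had some reads, CD4 T cell marker sums stayed within 0 to 71.2 CPM, the highest in WT blood replicate 2. B cell marker sums were 54.4 to 97.7 CPM in WT brain and 128 to 459 in WT blood, but 107 to 597 in APP-PS1 brain and 170 to 345 in APP-PS1 blood, with Ms4a1 at 0 in every library. Red cell marker sums were 36.2 to 873 CPM in brain and 2152 to 9967 in blood. Myeloid and microglia sums stayed within 0 to 111 CPM, natural killer cell sums within 35.6 to 712 and neuron and glia sums within 0 to 196, with overlap between tissues. APP-PS1 blood replicate 1 and APP-PS1 brain replicate 1 had the lowest median correlations to the other libraries, 0.673 and 0.637, and the fewest counts, 39055 and 27646. The next libraries followed closely, at 0.699 (41102 counts) and 0.709 (46336 counts), so the 2 left out together below as the libraries that stood apart are the end of a run that goes with depth. Replicate numbers only follow the order of the sample records. The design text counts as many mice of each strain as there are libraries, but no label names the animal of a library, so p-values measure the spread between these samples.

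The 5 members that passed the expression filter of the fit, about 117 CPM in at least 3 libraries, were Tcf7, Lef1, Satb1, Foxp1 and Dapl1, and 2366 genes were tested in all. Satb1 and Dapl1 passed through blood alone, with 6 and 3 blood libraries and 0 brain libraries at the filter level, so being higher in blood was a condition of their being tested. The other 5 members (Bach2, Foxo1, Igfbp4, Actn1 and Il6ra) were below the filter and are described by their counts. Brain minus blood differences are log2 fold changes from the quasi-likelihood test of edgeR, p-values were adjusted by Benjamini-Hochberg over all 2366 genes, and a gene is called at an adjusted p under 0.05.

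Averaged over the strains, Lef1, Tcf7, Satb1 and Dapl1 were lower in brain than in blood and Foxp1 was not called. The fall was 3.11-fold for Lef1 (log2 fold change -1.64, SE 0.30, adjusted p = 0.000249) and 2.19-fold for Tcf7 (-1.13, SE 0.28, adjusted p = 0.0109). For the blood-filtered pair the estimates were 3.93-fold for Satb1 (-1.97, SE 0.51, adjusted p = 0.0194) and 10.9-fold for Dapl1 (-3.44, SE 0.87, adjusted p = 0.0132). Of all 2366 genes 2.62% were called in this comparison, and 1.35% were called lower. The median log2 fold change over the 5 tested members, with the blood-filtered pair among them, was -1.64, beside 0.03 over all tested genes. These are bulk samples, in which fewer cells of a type and less RNA per cell cannot be told apart. Fitting sex as a term left 4 members called, and so did leaving out mitochondrial, ribosomal and haemoglobin genes. Calls were lost, with estimates of similar size, for Dapl1 without the 2 libraries that stood apart (-3.31, adjusted p = 0.0546), for Tcf7 (-1.01, 0.0618) and Satb1 (-1.74, 0.0784) without APP-PS1 blood replicate 3 and for Satb1 without WT brain replicate 2 (-1.85, 0.0524), and Dapl1 no longer met the filter without WT blood replicate 4. In the 12 female libraries Lef1 was called and Tcf7 (-1.19, adjusted p = 0.176), Satb1 (-1.83, 0.183) and Dapl1 (-3.26, 0.379) were not. With every library thinned to 27646 counts no member was called, at -1.22 for Lef1 (adjusted p = 0.0589) and -0.97 for Tcf7 (0.0716), with Satb1 and Dapl1 below the filter.

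**Figure D1:**
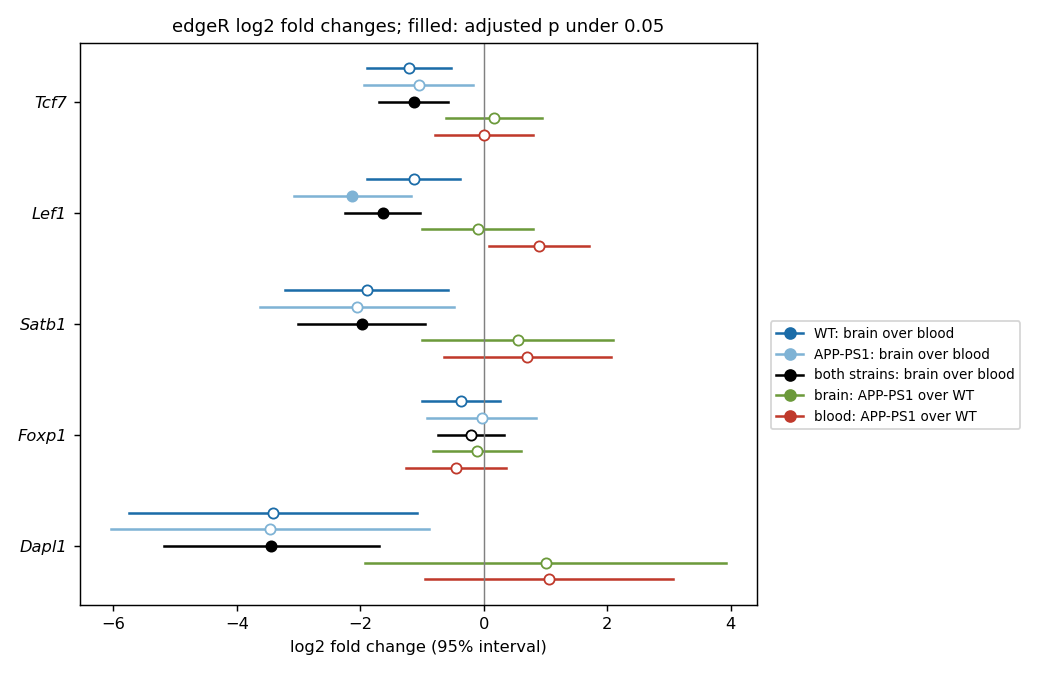
Log2 fold changes of the 5 tested members on the horizontal axis with 95% intervals, by comparison; filled points have an adjusted p under 0.05 in edgeR. The averaged tissue differences of Tcf7, Lef1, Satb1 and Dapl1 are filled and left of 0, and the interval of Foxp1 runs from -0.74 to 0.33.

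Lef1, which encodes a factor related to TCF-1, was at 122, 135, 195, 60.7 and 125 CPM in WT brain and at 340, 221, 212, 351 and 177 CPM in WT blood. In APP-PS1 mice it was at 145, 222, 88.9 and 39.2 CPM in brain and at 563, 583 and 414 CPM in blood. The 2 tissues did not overlap in APP-PS1, while in WT the highest brain library (195 CPM) lay above the lowest blood library (177 CPM). Within APP-PS1 the brain level was 4.39-fold lower (-2.13, SE 0.47, edgeR adjusted p = 0.00969), and Lef1 was the 1 member called there, against 0.549% of all tested genes and 0.338% called lower. Within WT it was not called (-1.14, SE 0.37, edgeR adjusted p = 0.194). Over 12 alternatives to the fit the WT estimate ran from -1.20 to -0.20 and was called in none. The difference between the WT and APP-PS1 contrasts was itself not called (-0.997, 95% interval -2.22 to 0.22, edgeR adjusted p = 0.945). The APP-PS1 call was lost without APP-PS1 blood replicate 2 (-1.96, adjusted p = 0.102) or APP-PS1 brain replicate 4 (-1.72, adjusted p = 0.0713), and with no filter on low counts (-1.995, adjusted p = 0.0594). In female libraries the estimate was -3.27 (adjusted p = 0.2997) from 1 APP-PS1 library per tissue, which was assumed to vary like the WT libraries.

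Tcf7, which encodes TCF-1, was at 95.3, 247, 235, 175 and 157 CPM in WT brain, with a mean of 182 ± 61.7 (SD, n = 5). WT blood had 396, 482, 636, 415 and 118 CPM, a mean of 409 ± 188 (SD, n = 5). In WT, 4 blood libraries lay above all brain libraries and the fifth, replicate 5, lay below 4 of them. APP-PS1 brain had 109, 281, 160 and 235 CPM and APP-PS1 blood 307, 432 and 560 CPM, with no overlap. Neither strain alone gave a call for Tcf7 (WT -1.21, edgeR adjusted p = 0.0828; APP-PS1 -1.05, edgeR adjusted p = 0.366), and no member was called in WT, where 0.761% of all tested genes were. Without WT blood replicate 5 the WT difference of Tcf7 was called (adjusted p = 0.00734). That library also had the lowest summed level of the 10 members among blood libraries, 589 CPM against 1323 to 1995 CPM in the other 7, and the lowest summed level of 29 other naive-associated genes, 2495 CPM against 3498 to 6120. The main values include it.

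Satb1, the chromatin organiser, was at 81.7, 17.7, 0, 0 and 93.9 CPM in WT brain and at 135, 158, 89.2, 256 and 58.9 CPM in WT blood. APP-PS1 brain had 36.2, 0, 71.1 and 102 CPM and APP-PS1 blood 128, 216 and 365 CPM. Of 9 brain libraries 3 held no Satb1 read, whereas all 8 blood libraries held at least 5. The groups overlapped in WT and did not in APP-PS1, and neither strain alone was called (edgeR adjusted p = 0.264 in WT and 0.287 in APP-PS1).

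Dapl1, a naive T cell marker of incompletely known function, was nearly absent from brain. It was at 0, 5.89, 19.6, 0 and 0 CPM in WT brain, which is 2 reads in all, and at 0, 11.7, 0 and 15.7 CPM in APP-PS1 brain, which is 3 reads. WT blood had 27.95, 7.91, 78.0, 144 and 29.5 CPM, and APP-PS1 blood 154, 64.7 and 146 CPM. All 8 blood libraries held Dapl1 reads, against 4 of 9 brain libraries. Pooled by group, the blood level was 11.4 times the brain level in WT (exact 95% counting interval 2.86 to 99.1) and 11.7 times in APP-PS1 (3.32 to 63.3); these intervals cover counting error only. The ratios rest on few brain reads and moved both ways when 1 library was left out. In WT they ran from 8.33 (without WT blood replicate 4) to 20.6 (without WT brain replicate 3). In APP-PS1 they ran from 9.52 (without APP-PS1 brain replicate 3) to 20.1 (without APP-PS1 brain replicate 4). Within a strain the edgeR adjusted p was 0.236 in WT and 0.258 in APP-PS1.

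Foxp1, a forkhead factor of T cell quiescence, showed no called tissue difference. WT brain was at 191, 300.2, 293, 258 and 386 CPM and WT blood at 312, 467, 580, 256 and 167 CPM. APP-PS1 brain was at 109, 328, 267 and 313 CPM and APP-PS1 blood at 282, 237 and 316 CPM. The tissues overlapped in both strains, and the averaged difference was -0.20 (95% interval -0.74 to 0.33, edgeR adjusted p = 0.842). That interval lies above the estimates of Lef1, Tcf7, Satb1 and Dapl1, but it overlaps the 95% interval of Tcf7 (-1.69 to -0.58). It also does not show that Foxp1 was equal in both tissues.

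**Figure D2:**
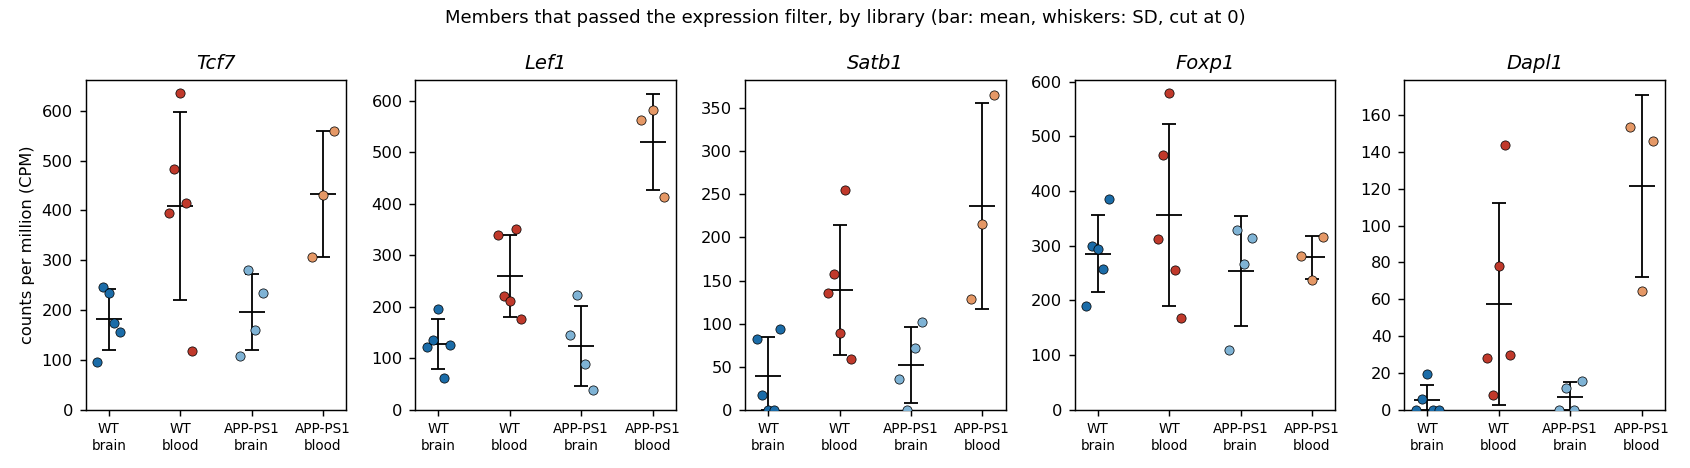
CPM of the 5 members that passed the filter, by library, on the vertical axis and the 4 groups on the horizontal axis; each point is a library, the bar is the mean and whiskers are the SD, cut at 0. APP-PS1 brain and APP-PS1 blood points do not overlap for Tcf7, Lef1, Satb1 and Dapl1, and Foxp1 overlaps in both strains.

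Tcf7, Lef1, Satb1 and Dapl1 were thus lower in every APP-PS1 brain library than in every APP-PS1 blood library, for Satb1 and Dapl1 under the condition that the filter set; 3.97% of all tested genes had this arrangement. The corresponding count in WT mice was 0 of 5, against 1.14% of all tested genes. With 4 libraries against 3, lack of overlap is also easier to reach than with 5 against 5.

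Whether the members fell to different degrees was tested within libraries, as the share that 1 gene held of the counts of a pair, which does not depend on library size. The pairs were chosen after the values were seen, and 15 tests were made (5 pairs, each within WT, within APP-PS1 and over both strains with tissue labels permuted within strain). Of the Foxp1 and Tcf7 counts, Foxp1 held 61.6% ± 7.12 (SD, n = 5) from WT brain, against 47.5% ± 7.53 (SD, n = 5) from WT blood. For APP-PS1 mice the shares were 55.9% ± 5.30 (SD, n = 4) for brain and 39.8% ± 6.95 (SD, n = 3) for blood. Over both strains the Foxp1 share was 15.1 percentage points higher in brain (exact two-sided permutation test, p = 0.000907, adjusted over the 15 tests 0.00680). Neither strain alone passed 0.05 after that adjustment (exact permutation, adjusted p = 0.0595 in WT and 0.0952 in APP-PS1). In APP-PS1, 4 libraries against 3 allow no exact p below 0.0571. Over both strains Foxp1 also held a larger share in brain when paired with Lef1 (22.4 points, exact permutation, adjusted p = 0.0255). Within WT and within APP-PS1 that pair was not past the threshold (exact permutation, adjusted p = 0.143 in each). Its share was 22.2 points larger in brain beside Satb1 and 20.1 points larger beside Dapl1. For Satb1 and Dapl1 a larger Foxp1 share in brain was favoured by the choice of members, since both passed the filter through blood alone, and these 2 values are given as descriptions. The share of Lef1 among Lef1 and Tcf7 counts differed by -8.64 points in brain, which was not past the threshold (exact permutation, adjusted p = 0.288). For WT the Lef1 share was 41.5% ± 11.5 (SD, n = 5) from brain, against 41.7% ± 13.7 (SD, n = 5) from blood. For APP-PS1 it was 37.8% ± 18.0 (SD, n = 4) from brain, against 54.9% ± 11.3 (SD, n = 3) from blood. Over both strains, the pairs of Foxp1 with Tcf7 and with Lef1 kept an unadjusted exact p under 0.05 when each library was left out in turn. Neither this nor the adjustment corrects for choosing the pairs after the values were seen.

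**Figure D3:**
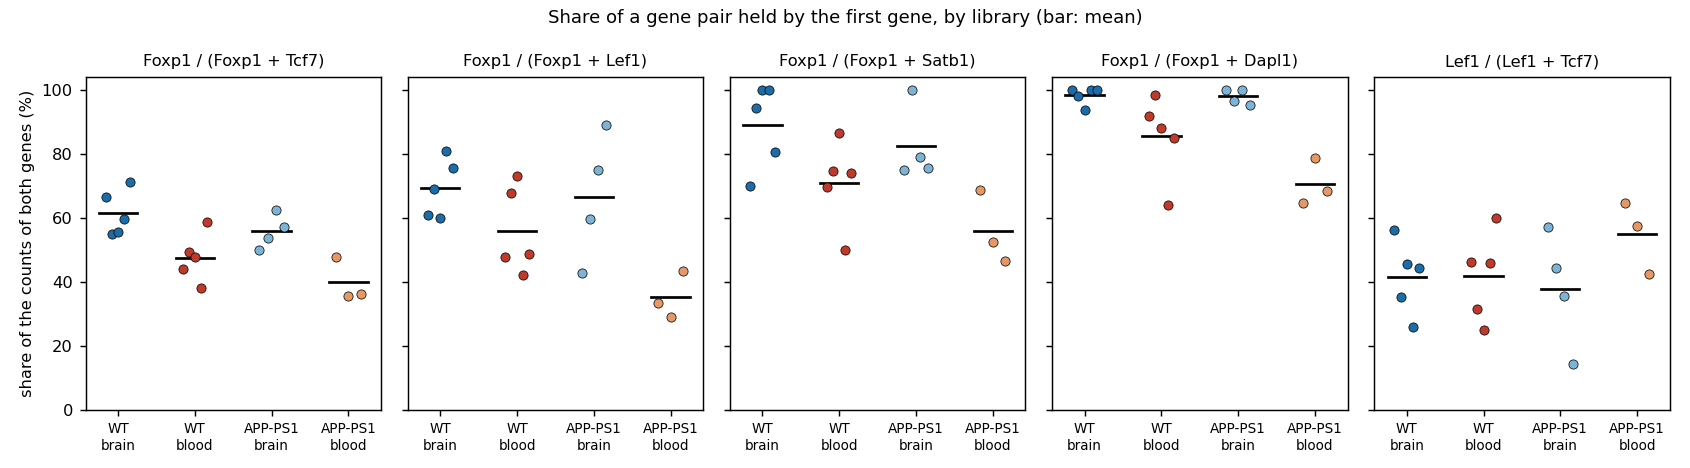
Share of the counts of 2 genes held by the first, in percent on the vertical axis, by library and group; each point is a library and the bar is the group mean. The mean Foxp1 share is higher in brain than in blood for its pairs with Tcf7, Lef1, Satb1 and Dapl1, with overlapping points in WT. The Lef1 and Tcf7 pair overlaps between tissues.

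Bach2, the repressor of effector genes, was found in 1 of 9 brain libraries and in 5 of 8 blood libraries. WT brain had 3, 0, 0, 0 and 0 reads and WT blood 2, 18, 6, 0 and 0 reads. APP-PS1 brain had 0 reads in all 4 libraries and APP-PS1 blood 5, 0 and 3 reads. Pooled by group, the WT blood level was 7.60 times that of WT brain (exact 95% counting interval 2.33 to 39.2). That ratio rested on WT blood replicate 2, which held 18 of the 26 reads, and was 2.97 without it. In APP-PS1 the pooled blood level of Bach2 was 6.26 times the limit that a count of 0 allows in brain, taken as 3 reads over the group. This ratio covers neither the counting error of the 8 blood reads nor the spread between libraries, so it is not a lower bound. It was 3.57 without APP-PS1 brain replicate 4 and 9.88 without APP-PS1 blood replicate 2. Without APP-PS1 blood replicate 1, which held 5 of the 8 reads, the 3 left are at the limit itself and give no fold. Neither strain alone passed an exact two-sided permutation test on CPM (p = 0.286 in each). Without ties the smallest possible values are 0.00794 in WT and 0.0571 in APP-PS1, but libraries at 0 are tied, which raises both limits. In APP-PS1 all reads were already in blood, so that test could not have given a smaller p. Permuting tissue within strains, a test added after the values were seen, gave p = 0.0408 (exact, two-sided, not adjusted), but 0.114 without the 2 libraries that stood apart, and leaving out any 1 of 12 of the 17 libraries put it above 0.05, at up to 0.0952.

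Foxo1, the regulator of homing genes, ran the other way in its estimates. WT brain had 1, 14, 0, 5 and 0 reads and WT blood 2, 6, 2, 0 and 2 reads, or 26.8 ± 34.7 CPM (SD, n = 5) against 19.7 ± 17.8 CPM (SD, n = 5). APP-PS1 brain had 4, 5, 1 and 9 reads and APP-PS1 blood 0, 1 and 1 reads, which is 72.9 ± 52.9 CPM (SD, n = 4) and 15.3 ± 13.3 CPM (SD, n = 3). The groups overlapped in both strains and no exact permutation test passed 0.05 (p = 0.730 in WT, 0.171 in APP-PS1 and 0.0891 within strains). On leaving out 1 library the last ran from 0.0405, without APP-PS1 brain replicate 3, to 0.185.

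The 3 remaining members were rarer. Igfbp4, a secreted binding protein for insulin-like growth factors, had 0 reads in 9 brain libraries and 5 reads in 3 of 8 blood libraries, at or under the limit that a count of 0 allows in every group, so no fold is given. Actn1, a crosslinker of actin filaments, had 1, 3, 0, 2 and 0 reads in WT brain and 11, 4, 2, 1 and 1 in WT blood, and 1, 2, 1 and 0 in APP-PS1 brain and 0, 7 and 3 in APP-PS1 blood. Its exact permutation p was 0.0714 in WT, 0.286 in APP-PS1 and 0.0798 within strains. On leaving out 1 library the last ran from 0.00476 to 0.241. The low end came without APP-PS1 blood replicate 1, which held no Actn1 read, so its omission widens the gap. The library with the highest Actn1 level, APP-PS1 blood replicate 2 at 151 CPM, also had the highest platelet marker sum, 151 CPM against 0 to 47.4 CPM elsewhere (2 of 5 platelet markers found there, Ppbp, Itga2b and Gp1bb at 0), and the part of platelets in that value was not tested. Il6ra had 0, 4, 2, 0 and 1 reads in WT brain and 9, 1, 0, 3 and 1 in WT blood, and 0, 0, 0 and 1 in APP-PS1 brain and 0, 6 and 1 in APP-PS1 blood (exact permutation p = 0.595, 0.286 and, within strains, 0.124). Of 20 exact tests over the 5 members below the filter and the 4 comparisons of group pairs, 0 had p under 0.05. The 5 within APP-PS1 could not have, since 4 libraries against 3 allow no exact p below 0.0571. Libraries tied at 0 put a pass out of reach in others too. Examples are Igfbp4 between brain groups, with 0 reads in both, and Bach2 between brain groups, with reads in 1 library.

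**Figure D4:**
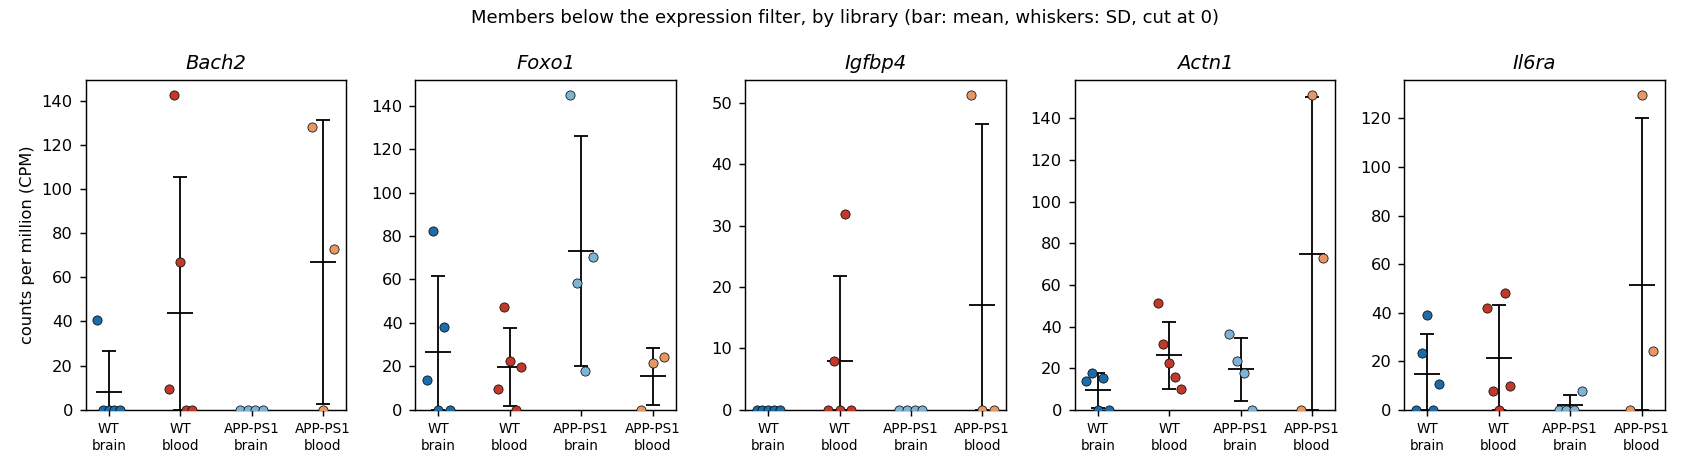
CPM of the 5 members below the filter, by library, on the vertical axis and the 4 groups on the horizontal axis; each point is a library, the bar is the mean and whiskers are the SD, cut at 0. Bach2 is at 0 in 8 of 9 brain libraries, Igfbp4 in 9 of 9, and the highest Foxo1 point is an APP-PS1 brain library.

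A wider filter, 5 CPM in 3 libraries, let all 10 members into one edgeR fit with 10167 genes. Averaged over strains, 5 of the 10 were called lower in brain, against 0.541% of those genes called in either direction and 0.295% called lower. They were Lef1 (adjusted p = 0.000331), Satb1 (0.00674), Dapl1 (0.00739), Bach2 (0.0239) and Tcf7 (0.0314). Bach2 and Igfbp4 met this filter through blood. The other 5 were not called, with edgeR adjusted p of 0.213 for Igfbp4, 0.417 for Il6ra, 0.419 for Actn1, 0.554 for Foxo1 and 0.918 for Foxp1.

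Between strains no member was called in either tissue. In brain the edgeR estimates of APP-PS1 over WT were 0.17 for Tcf7, -0.10 for Lef1, 0.55 for Satb1, -0.11 for Foxp1 and 1.007 for Dapl1, and 0% of all tested genes were called. In blood Lef1 was higher in all 3 APP-PS1 libraries (414 to 583 CPM) than in all 5 WT libraries (177 to 351 CPM), an arrangement that 3.25% of all tested genes had in this direction. Its log2 fold change was 0.90 (SE 0.41, 95% interval 0.087 to 1.71, edgeR adjusted p = 0.552) where 0.0423% of tested genes were called; with sex as a term the estimate was 0.20 (adjusted p = 0.985). The other blood estimates were 0.01 for Tcf7, 0.71 for Satb1, -0.45 for Foxp1 and 1.06 for Dapl1. Strain and sex overlap in these libraries, since all WT mice were female, and no tissue difference in a member depended on strain past the threshold, with 0 of 5 called against 0.0423% of tested genes. The strain comparisons share their libraries with the tissue comparisons above.

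The members were set beside 29 other genes of naive and quiescent T cells, of which 10 passed the filter. Averaged over strains, 7 of the 10 fell in brain and 0 rose, beside 1.35% of all tested genes that fell, and the median log2 fold change was -2.41. Of the 10, 6 passed the filter through blood alone (Ccr7, S1pr1, Klf3, Txk, Cmah and Cd27), so being higher in blood was a condition of their being tested; Klf2, Ets1, Cd28 and Il7r reached the filter level in 3 or more brain libraries as well. Klf3 (-3.16, SE 0.30, edgeR adjusted p = 1.32e-11) and Klf2 (-2.67, SE 0.26, edgeR adjusted p = 2.18e-11) encode Krüppel-like factors, and KLF2 drives the exit receptor gene S1pr1 (-2.79, edgeR adjusted p = 0.0333). Ccr7 (-3.21, edgeR adjusted p = 9.32e-07) encodes a chemokine receptor for entry into lymph nodes. Cmah, Ets1 and Txk were the other 3 called (log2 fold changes -3.54, -0.99 and -2.15). Cd27, Cd28 and Il7r were not called, at -0.17, -0.99 and -0.93. The averaged estimates of the list ran from -3.54 to -0.17, a range that holds those of the 5 tested members. Within strains, Klf2, Klf3 and S1pr1 were called in WT and Klf2, Klf3 and Ccr7 in APP-PS1. Ccr7 was the 1 gene of the 2366 called between strains in blood (2.54 higher in APP-PS1, SE 0.51, edgeR adjusted p = 0.0169), in the same libraries in which Lef1 did not overlap. With sex as a term, after thinning or without the 2 libraries that stood apart, 0 genes were called in that comparison. All WT libraries were from females, so strain and sex cannot be fully told apart there.

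**Figure D5:**
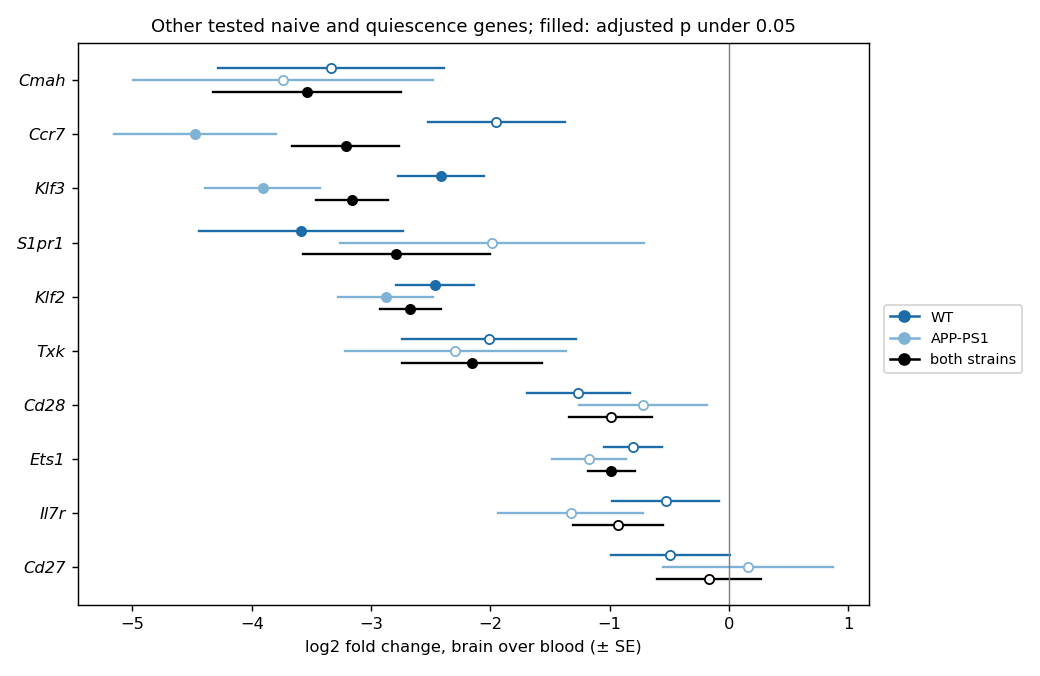
Brain over blood log2 fold changes (± SE) on the horizontal axis for the 10 other naive and quiescence genes that were tested, in WT, in APP-PS1 and averaged; filled points have an adjusted p under 0.05 in edgeR. All 10 averaged estimates lie left of 0 and 7 are filled.

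Targets of FOXO1 were taken from a list of 10, of which 6 were tested. In the averaged comparison 3 were called lower in brain, beside the 1.35% of all tested genes: Klf2, Ccr7 and S1pr1, all also in the list above, with Ccr7 and S1pr1 having passed the filter through blood alone. The median of the 6 was -1.80, beside 0.03 over all tested genes. Il7r (-0.93), Txnip (-0.09) and Cdkn1b (0.17), a cell cycle inhibitor, were not called. Cofactors of TCF-1 and LEF-1 gave 0 calls among 3 tested, where 2.62% of all tested genes were called in either direction. So few genes cannot be set apart from that share. Aes was at 0.20, Tle4 (which passed the filter through blood alone) at -0.23 and Tle3 at -0.59 on the log2 scale. Tcf7l1 and Tcf7l2, the related HMG-box genes, were at 0 in every group.

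Around Il6ra, 7 of 12 genes of interleukin-6 signalling were tested. In the averaged comparison 1 was called higher and 1 lower, beside 2.62% of all tested genes called in either direction. Averaged over strains, Socs1, an inhibitor of cytokine signalling, rose in brain (1.92, SE 0.43, edgeR adjusted p = 0.00375), and Pim1, a kinase induced by cytokines, fell (-0.78, SE 0.21, edgeR adjusted p = 0.0309). Socs1 was also called within APP-PS1 (2.94, edgeR adjusted p = 0.0437). Of 20 genes of effector and residency fates, 14 were tested, 5 of them through blood alone. In the averaged comparison 1 was called higher and 2 lower, beside the same 2.62% of all tested genes. Cxcr6, a chemokine receptor of resident T cells, rose in brain (1.54, SE 0.24, edgeR adjusted p = 1.55e-05). Ccl5 (-0.80, edgeR adjusted p = 0.000249) and Klrg1 (-2.02, edgeR adjusted p = 0.0314) fell, Klrg1 having passed the filter through blood alone. The other 11 were not called.

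For each tested member the 3 most similar genes were taken from 2184 candidates, which left out the members, by Pearson's r of log2 CPM over the 17 libraries. The libraries share depth and tissue, so r is a description. Lef1 was most like Klf2 (0.82), Ccr7 (0.81) and Klf3 (0.79). Tcf7 was most like Cytip (0.81), Fnbp4 (0.74) and Cmah (0.71), and Satb1 was most like Ugcg (0.82), Klf3 (0.76) and Cmah (0.74). Dapl1 was most like Ier2 (0.85), Tsc22d3 (0.80) and Klf3 (0.80). Foxp1 was most like Igf2r (0.82), Serinc3 (0.79) and Irf2bp2 (0.78), which it shared with no other member. Its r with Tcf7 (0.712) was nonetheless above that of Cmah with Tcf7 (0.711). Klf3 was thus among the nearest 3 for Lef1, Satb1 and Dapl1. Among the members themselves, r was 0.76 for Lef1 with Dapl1, 0.71 for Tcf7 with Foxp1, 0.61 for Tcf7 with Lef1 and 0.12 for Lef1 with Foxp1.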

How the data were processed

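RNA sequencing counts of CD8+ T cells from 17 libraries were used as the authors deposited them, as whole numbers per gene. Per the submitters' processing notes, FastQC, Bowtie2 2.2.2, HTSeq 0.11.2 and DESeq2 were used with GRCm38; the sources used here do not say whether counting used strand or molecular identifiers. Groups came from the labels. The members, lists and tests were chosen with earlier results of these data known.

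Counts were fitted in edgeR 4.0.16 (R 4.3.3): TMM normalization, expression filter by group, robust quasi-likelihood fit, 1 mean per group over all 17 libraries, Benjamini-Hochberg adjustment over 2366 genes. SE is the log2 fold change divided by the root of F, which is imprecise for differences near 0. Members below the filter were compared on CPM by exact two-sided permutation tests (SciPy 1.17.1). The steps were tested on simulated data. Motifs were sought in RefSeq windows of 250 bases. RefSeq and GENCODE starts differ for Lef1, Bach2, Foxp1, Foxo1 and Actn1. Same-group libraries differed beyond sampling noise (chi-square per degree of freedom 2.59 to 5.69 over 29 pairs), so each counts as 1 replicate.

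Named genes were all 10 members, of each other list those called in any of 5 comparisons (at most 6 with the smallest adjusted p, otherwise the 2 most abundant), and the 3 genes most like each tested member; genes named beyond this were chosen after their values were seen. Some listed genes were left out of the lists and are not reported here. Alternatives were DESeq2 1.42.0, limma 3.58.1 (voom with quality weights), other normalization and filters, sex as a term, thinning of every library to 27646 counts, a fit of females alone, omission of abundant gene classes and of each library.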

Additional observations from a re-analysis of the deposited data

Results flagged for a closer look

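For members, 3 values lay far from the rest of their group by Dixon's criterion, in 27 groups of member values tested; chance marks about 1 group in 20, and a group at 0 in all other libraries is marked by any read. Bach2 was at 40.8 CPM in WT brain replicate 1 and at 0 in the other 4 WT brain libraries. Igfbp4 was at 31.9 CPM in WT blood replicate 4, against 0 to 7.91 CPM in the other 4. Il6ra was at 7.83 CPM in APP-PS1 brain replicate 4, which is 1 read, and at 0 in the other 3 libraries.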

How the results depend on the processing

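Averaged over strains, 4 members were called under 6 of 11 alternatives to the fit, 5 under 2 wider filters, 3 without the 2 libraries that stood apart, 1 in female libraries only and 0 after thinning, where Satb1 and Dapl1 were not tested and Tcf7 and Lef1 had adjusted p of 0.0716 and 0.0589. Leaving out 1 library gave 2 to 4. Under the main filter Satb1 and Dapl1 entered these counts through blood alone, as did Bach2 under the filter of 5 CPM. Tcf7 and Lef1 reached the main filter level in brain libraries as well. The WT count of members was 1 in female libraries and without the 2 libraries that stood apart (Tcf7 in both, adjusted p = 0.0258 and 0.0340) and 0 to 1 on leaving out 1 library; the APP-PS1 count was 0 with no filter and in female libraries, and 0 to 1 on leaving out 1 library. Members below the filter passing an exact test numbered 0 to 1 on leaving out 1 library.

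Genes called in APP-PS1 brain against blood numbered 13, 21 with DESeq2, 7 with voom, 4 in female libraries, 8 without mitochondrial, ribosomal and haemoglobin genes and 8 to 22 on leaving out 1 library. In WT 18 became 10 with voom and 9 after thinning, and the averaged 62 became 38, 26 (thinned) and 18 (female libraries). Between strains in blood, 1 became 3 with voom, 5 with no filter, 7 with 5 CPM, 4 with only the groups compared, 3 without the abundant gene classes, 0 when thinned, with sex, in female libraries or without the 2 libraries that stood apart, and 0 to 3 on leaving out 1. The strain difference in tissue effect, 1, became 0 with DESeq2, voom, thinning, female libraries and without the 2 libraries, and 0 to 1 on leaving out 1.

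Values that changed sign were all uncalled. Dapl1's strain difference became 0.090 (DESeq2), 0.13 (no filter), 0.11 (5 CPM), 0.45 (female) and 0.30 (without the 2 libraries), and Satb1's 0.054, 0.039 and 0.19 (no filter, 5 CPM, female). Foxp1 in APP-PS1 brain against blood became 0.11, 0.13, 0.083 and 0.13 (no filter, 5 CPM, female, without the 2 libraries), and in APP-PS1 against WT brain 0.13 (sex), 0.16 (female) and 0.10 (without the 2 libraries). Tcf7 between strains in blood became -0.26 (no filter and 5 CPM) and -0.0035 (without the abundant classes). On leaving out 1 library, Foxp1 in APP-PS1 ran from -0.16 to 0.16; in brain between strains Tcf7 ran from -0.0087 to 0.37, Lef1 from -0.74 to 0.33, Satb1 from -0.26 to 1.27 and Foxp1 from -0.20 to 0.093; Tcf7 in blood ran from -0.28 to 0.24; and the strain differences ran from -0.055 to 0.45 for Tcf7, -0.97 to 0.58 for Satb1 and -0.70 to 0.60 for Dapl1. The cause was not tested. No paired analysis was possible because no label ties brain to blood libraries.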
